A study of Homo sapiens with 36 samples.

Results

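Binding at heat shock and chaperone genes was followed across peak lists of chromatin immunoprecipitation with sequencing (ChIP-seq). The genes are HSP90AA1, HSP90AB1, HSPA1A, HSPA1B, HSPA8, HSPA5, HSPH1, DNAJB1, HSPD1 and HSPE1. These 10 genes of 20033 protein-coding genes were chosen by name, and every peak of the 16 lists within 3 kb of any of their annotated start sites was taken, together with every peak of the Jun family within 50 kb. The cells were A549, an established lung adenocarcinoma line, and BEAS-2B (B2B), an immortalized but non-cancerous line of bronchial epithelium. Both were untreated as far as the labels state, and each stands for 1 line, so that a difference between them cannot be told apart from a difference between any 2 cell lines. The labels give 36 samples in 18 groups of 2 replicates, of which 4 are input chromatin. The targets precipitated in A549 and B2B alike were RNA polymerase II (pol II), Med1 of the Mediator complex, JunB, Jun, JunD and the histone marks H3K27ac and H3K4me3. CTCF and the cohesin subunit Rad21 were analysed here in B2B alone.

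Heat shock proteins are chaperones, which bind unfolded proteins and help them to fold. HSP90 proteins act late, on receptors and kinases. HSP70 proteins bind short unfolded stretches, J-domain proteins such as DNAJB1 bring them their substrates, and HSP110 proteins such as HSPH1 exchange their nucleotide. HSPD1 and HSPE1 form the folding chamber of the mitochondrion. Under heat or proteotoxic stress heat shock factors bind the heat shock element, a row of GAA units in alternating orientation, and release pol II that is paused at the promoter. Several of these genes are also transcribed strongly in unstressed cells, and tumour cells often depend on them. AP-1 is a dimer of Jun-family and Fos-family proteins that binds the motif TGACTCA, mostly at enhancers.

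Each list was called on the merged reads of its replicates, so no value below has a replicate error and no difference between the lines was tested. Of the lists, 4 ended early, and a gene past the end of a list was not assessed in it. This left out HSP90AA1 in H3K27ac, and DNAJB1 in H3K27ac and Med1. For each peak the number of reads at its summit (pileup) and the local background of the peak caller were solved from the deposited fold enrichment and p-value. Of 5 epithelial marker genes 4 had an H3K4me3 peak in each line, the exception being KRT19. Of 3 blood cell markers PTPRC had one in A549, and of 3 fibroblast markers 2 had one in each line, so the defining markers of fibroblasts were not absent from either line.

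The DNA at the members is shown first, because the later results refer to it. Searched on both strands were the pairs GAANNTTC and TTCNNGAA of the heat shock element, where a pair of each kind that share a unit make 3 units. Within 250 bases before the main start (the start of the Ensembl canonical transcript) a stretch of 3 or more units was found at 4 of 10 members and at 0.325% of 20007 protein-coding gene symbols. A pair was found there at 7 of 10 members and at 9.51% of all. Within 1 kb on either side, 3 or more units were found at 6 of 10 members and at 2.67% of all. The sequences below are from hg38, on the strand of the gene, with the units in capitals.
HSP90AA1, -88 bases from the main start, chr14:102087114-102087138 (minus strand): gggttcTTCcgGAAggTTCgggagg
HSP90AB1, 677 bases into the gene, chr6:44247772-44247796 (plus strand): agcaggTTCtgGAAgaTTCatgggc
HSP90AB1, 730 bases into the gene, chr6:44247825-44247849 (plus strand): agattgTTCtgGAAgcTTCtggatt
HSPA8, -55 bases, chr11:123062173-123062197 (minus strand): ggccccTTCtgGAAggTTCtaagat
HSPA8, -230 bases, chr11:123062348-123062372 (minus strand): gagcttGAAagTTCcaGAAcgctgc
HSPH1, -59 bases, chr13:31161945-31161969 (minus strand): cgcagaTTCtgGAAagTTCtgatca
HSPD1, -245 bases, chr2:197500062-197500091 (minus strand): ggcattTTCtgGAAagTTCtgGAAccgagc
HSPA1A, -106 bases, a single pair, chr6:31815431-31815450 (plus strand): accctgGAAtaTTCccgacc
HSPA1B, -105 bases, a single pair, chr6:31827627-31827646 (plus strand): cccctgGAAtaTTCccgacc
DNAJB1, -77 bases, a single pair, chr19:14518461-14518480 (minus strand): ggggcgGAAggTTCtggagg
Further single pairs within 250 bases before the main start are not printed. They lie at -47 bases of DNAJB1, -68 of HSP90AA1 and -139 of HSPH1. The stretch of 4 units upstream of HSPD1 is also that of HSPE1, at -311 bases, since the 2 genes are transcribed away from each other from one promoter. HSPA1A and HSPA1B are near-identical copies: 98.7% of the first 2000 bases of the gene and 94.0% of the 250 bases before the start were the same. Their peaks are uncertain where reads could have been placed at either copy.

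HSPA5 encodes the HSP70 of the endoplasmic reticulum (BiP), which is induced by unfolded protein in that compartment rather than by heat. It had no pair of heat shock units in the 250 bases before its start. It was the 1 member with an endoplasmic reticulum stress element, the letters CCAAT, any 9 bases and CCACG, which 26 of 35116 RefSeq promoters (0.0740%, GRCh38.p14, bases before the start) held. The element is shown on the strand of the gene with both parts in capitals.
HSPA5, -66 to -48 bases, chr9:125241376-125241424 (minus strand): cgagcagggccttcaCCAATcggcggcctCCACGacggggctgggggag

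All members carried the marks of an active promoter in both lines. A pol II peak lay within 3 kb of a start site of 10 of 10 members in A549 and in B2B, where 69.6% and 51.9% of all assessed protein-coding genes had one. H3K4me3, the mark of active promoters, was called at 10 of 10 members in each line, against 73.7% of genes in A549 and 62.7% in B2B. Med1 was called at 9 of 9 assessed members in each line, against 54.7% and 61.1% of genes. H3K27ac, the mark of active promoters and enhancers, was called at 8 of 8 in each, against 73.5% and 64.3%. Genes with an H3K4me3 peak in both lines are a closer comparison, and among them pol II was called at 96.9% in A549 and 79.9% in B2B, H3K27ac at 98.5% and 95.4%, and Med1 at 82.1% and 91.5%. With at most 10 members, of which HSPD1 and HSPE1 share a locus, the members' counts for pol II, H3K27ac and Med1 were all near those shares.

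**Figure D1:**
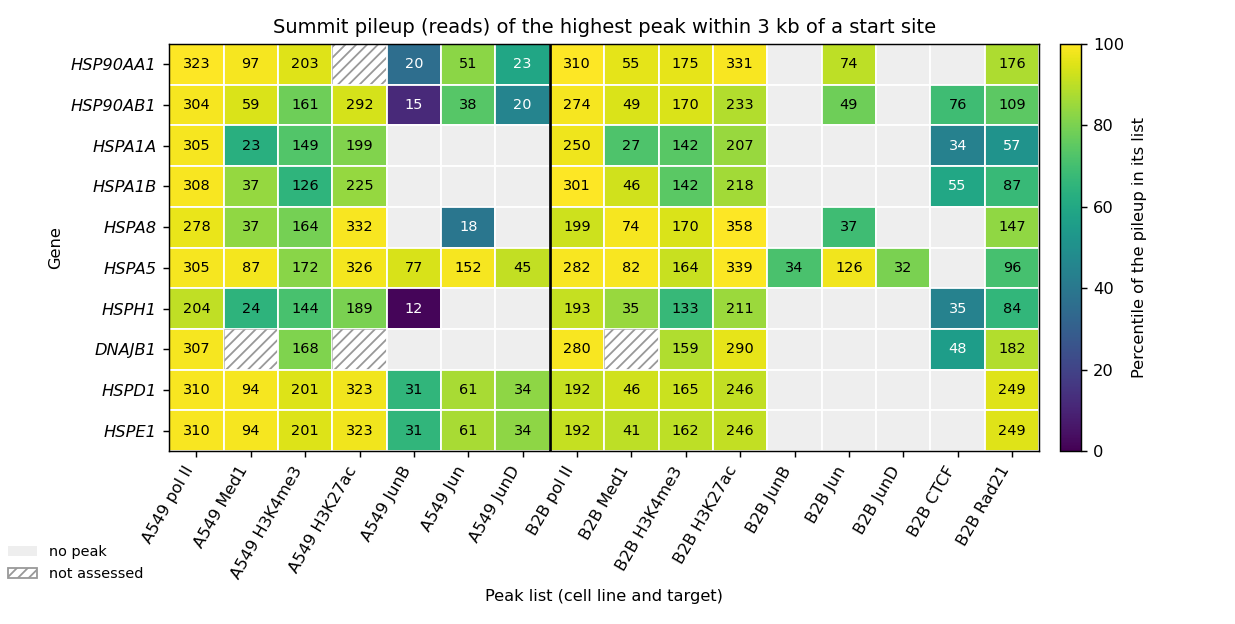
Reads at the summit of the highest peak within 3 kb of a start site, for each gene (rows) and each of the 16 lists (columns), coloured by the percentile of that pileup in its list, with grey for no peak and hatching for not assessed. The A549 pol II column lies between 204 and 323 reads and that of B2B between 192 and 310, and the JunB and JunD columns of B2B are empty but for HSPA5.

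The pol II peaks of the members were among the highest in the A549 list. The pileup at the summit was 323 reads at HSP90AA1, 304 at HSP90AB1, 305 at HSPA1A, 308 at HSPA1B, 278 at HSPA8, 305 at HSPA5, 204 at HSPH1, 307 at DNAJB1 and 310 at the peak that HSPD1 and HSPE1 share. HSPH1, the co-chaperone of HSP70, was the lowest, and HSP90AA1, the stress-inducible HSP90, the highest. The highest pileup of the whole list was 332 reads. Within 10% of it lay 8 of 10 members, HSPD1 and HSPE1 by the same peak, and 1.78% of the list's peaks. Each member was taken by its highest peak, whereas the 1.78% counts every peak. Values this near to the upper end of the list leave little room to rank the members. In B2B 2 of 10 members lay within 10% of the highest pileup, as did 0.761% of the peaks. The summits lay close to the main start in A549, between 3 and 47 bases downstream of it at 9 members and, for HSPE1, at the start of HSPD1. In B2B they lay 5 to 44 bases downstream at the same 9.

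In B2B the pol II pileups ran from 192 reads at HSPD1 with HSPE1 to 310 at HSP90AA1, with a median of 262 against 306 in A549. HSPA1B had 301 reads, HSPA5 282, DNAJB1 280, HSP90AB1 274, HSPA1A 250, HSPA8 199 and HSPH1 193. HSPA8 and the HSPD1 with HSPE1 peak were the furthest below their A549 values, and HSPH1 was near the bottom of the members in both lines. The depth of the merged reads is unknown, so these pileups are set side by side and no fold is drawn from them. By the percentile of the pileup in its own list, 4 of 10 members stood higher in A549 than in B2B, and the medians were 98.8 and 98.2. By the percentile of fold enrichment all 10 stood higher in A549, with a median of 97.7 against 78.2.

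The gap between these 2 orders goes with the local background. At the pol II peaks of highest fold enrichment the local background was a median of 1.30 times the lowest of its list in A549 and 18.0 times in B2B. For H3K4me3 it was 1.32 and 11.9 times, for H3K27ac 1.41 and 16.3 times, and for Med1 1.60 and 1.42 times. Fold enrichment divides by this background, so it is not compared between the lines below other than as values side by side. Its part in the calls of B2B was not tested.

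Med1 and H3K27ac placed the members in a similar range in both lines. The Med1 pileup was 87 reads in A549 and 82 in B2B at HSPA5, 97 and 55 at HSP90AA1, 59 and 49 at HSP90AB1, 37 and 74 at HSPA8, 37 and 46 at HSPA1B, 23 and 27 at HSPA1A, and 24 and 35 at HSPH1. HSPA5 and HSP90AA1 were high and HSPA1A and HSPH1 low in A549, and HSPA8 was the gene with the largest excess of B2B over A549 reads. HSPD1 and HSPE1 shared a Med1 peak of 94 reads in A549, where the B2B peak between their starts had 41. The H3K27ac pileup ran from 189 reads at HSPH1 to 332 at HSPA8 in A549 and from 207 at HSPA1A to 358 at HSPA8 in B2B.

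H3K4me3 covered more of the 6-kb window around the main start in A549 than in B2B at 10 of 10 members. The covered length had a median of 4.43 kb in A549 and 2.53 kb in B2B. HSPD1 had the broadest A549 domain, 5.85 kb, and DNAJB1 the narrowest, 3.22 kb. In B2B the range was 1.60 kb at HSP90AA1 to 3.92 kb at HSPA8. Of all protein-coding genes covered in both lines 93.5% were also wider in A549, so the direction is that of the lists as a whole. The members were broader than other covered genes within each line, whose medians were 2.29 kb in A549 and 1.59 kb in B2B. For Med1 the order was mixed, with 4 of 9 members wider in A549 and medians of 1.81 and 1.85 kb, where 32.1% of all genes covered in both lines were wider in A549.

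Jun-family peaks split the members. JunB was called at 6 of 10 members in A549, against 31.1% of protein-coding genes, and at 1 of 10 in B2B, against 5.28%. Jun was called at 6 in A549 (38.2% of genes) and 4 in B2B (25.4%). JunD was called at 5 in A549 (17.8%) and 1 in B2B (3.21%). In A549 alone, JunB was called at 5 members (26.7% of genes), Jun at 2 (19.3%) and JunD at 4 (16.2%). The A549-alone shares of genes with H3K4me3 in both lines were 38.2%, 26.8% and 24.3%. No member had one of them in B2B alone, where 0.953% (JunB), 6.50% (Jun) and 1.57% (JunD) of genes did. With 10 members, counts of none lie near those shares. For all calls in A549, the shares of genes with H3K4me3 in both lines were 44.2% (JunB), 53.4% (Jun) and 26.7% (JunD). In B2B they were 7.11%, 33.5% and 4.43%. With 10 members that share loci, the members' counts lie near those shares for JunB and Jun in A549 and for all 3 in B2B. The JunD count of 5 in A549 takes in the 1 peak of HSPD1 and HSPE1 for both, and is too small to be set apart from 26.7%. All 3 proteins together were called at 5 members in A549, namely HSP90AA1, HSP90AB1, HSPA5, HSPD1 and HSPE1, where 20.8% of the genes with H3K4me3 in both lines had all 3. HSPD1 and HSPE1 count as 1 locus there. The A549 list of JunB held 28068 peaks and that of B2B 8563, and with the former shortened to the length of the latter by the p-value, HSPA5 alone of the members kept JunB in A549 (1 of 10). Within 1 kb rather than 3 kb of a start, JunB and JunD were called at 0 of 10 in B2B and Jun at 2.

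**Figure D2:**
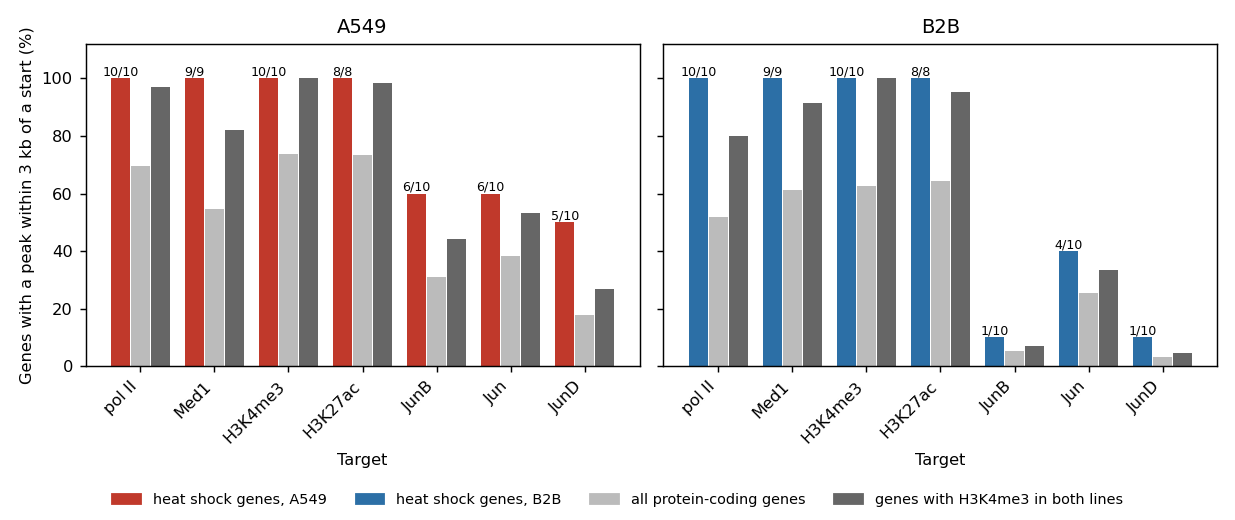
Percentage of genes with a peak within 3 kb of a start site in A549 (left) and B2B (right) for 7 targets, with bars for the heat shock genes (count of assessed members above each), all protein-coding genes and genes with H3K4me3 in both lines. The bars of the heat shock genes reach 100% for the first 4 targets, and in B2B fall to 1 of 10 for JunB and JunD.

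HSP90AB1 (chr6:44246166-44253888), the constitutive HSP90, had 3 Jun regions at its start in A549. JunB, Jun and JunD met at -0.106 kb with pileups of 15, 38 and 20 reads, and again at 0.539 kb, inside the gene, with 15, 26 and 18 reads. The third, at -0.643 kb, held Jun alone with 19 reads. In B2B Jun was called at the first and second of these, with 42 and 49 reads, and JunB and JunD at none. The first summit lies beside the cyclic AMP response element TGACGTCA, which Jun dimers with ATF proteins also bind, and the second beside an AP-1 motif. They are shown because no other member had either motif at a summit within 1 kb of its own start (101 bases around the A549 Jun summit, hg38, plus strand, motif in capitals).
HSP90AB1 promoter, chr6:44246928-44247028: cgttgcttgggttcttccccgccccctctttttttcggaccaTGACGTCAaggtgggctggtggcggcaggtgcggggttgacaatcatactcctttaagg
HSP90AB1 downstream of the start, chr6:44247544-44247644: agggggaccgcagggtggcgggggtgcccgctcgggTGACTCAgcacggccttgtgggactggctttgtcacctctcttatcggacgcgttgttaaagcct
The 2 heat shock elements of HSP90AB1 printed above lie in the second region too, 190 and 243 bases from the nearest Jun-family summit.

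HSP90AA1 (chr14:102080742-102139699), the inducible HSP90, also had all 3 proteins in 2 regions in A549. At 0.515 kb the pileups were 17 reads for JunB, 51 for Jun and 15 for JunD, and at -0.034 kb they were 20, 23 and 23. In B2B Jun was called at the first, with 74 reads, and nothing at the second. The second region covers the heat shock element at -88 bases. HSP90AA1 has annotated starts up to 55.5 kb apart, and its window reaches the promoter of WDR20, where JunB was called in A549 with 13 reads.

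HSPD1 and HSPE1, the mitochondrial chaperonin pair, shared 1 region between their starts (chr2:197499777-197500343) that was called in A549 alone. JunB had 31 reads there, Jun 61 and JunD 34. The row of 4 heat shock units printed above lies in it, 30 bases from the nearest summit. No Jun-family peak of B2B lay within 3 kb of any start of either gene, although pol II and both histone marks were called there. A second A549 region with all 3 proteins, at -16.2 kb from HSPD1, lies at the start of MOB4 and of an annotated HSPD1 transcript.

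HSPA5 (chr9:125234853-125241382) was the 1 member with all 3 proteins in both lines, and they met at the same place. The site lies between genes, -2.09 kb from the start, at chr9:125243194-125243680. In A549 the pileups were 77 reads for JunB, 152 for Jun and 45 for JunD, and in B2B 34, 126 and 32. Jun was the strongest of the 3 in each line, with its pileup at the 98.8 and 98.0 percentile of its list. The AP-1 motif is 24 bases from the A549 Jun summit (minus strand, motif in capitals).
HSPA5 upstream site, chr9:125243414-125243514: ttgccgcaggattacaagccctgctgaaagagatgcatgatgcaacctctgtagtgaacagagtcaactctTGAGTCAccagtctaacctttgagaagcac
A pair of weaker regions at the start itself, at -0.179 and 0.362 kb, was called in A549 alone, with up to 25 reads.

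The other HSP70 genes differed. HSPA8 (chr11:123057489-123063230), the constitutive HSP70 of the cytosol, had a Jun peak in both lines at -3.71 kb, within 3 kb of another of its starts, with 18 reads in A549 and 37 in B2B. It had no Jun-family peak at its start, where 2 heat shock elements lie. HSPA1A (chr6:31815543-31817946) and HSPA1B (chr6:31827738-31830254), the most strongly heat-inducible genes of the family, had none within 3 kb in either line. Both had high pol II pileups in each line, as given above. The nearest region lay between them, 4.13 kb past the start of HSPA1A, with Jun in A549 at 15 reads.

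HSPH1 (chr13:31134973-31162388) had JunB in A549 alone, at its start. The peak had 12 reads, which is at the 1.34 percentile of the JunB list, and its summit was 1 base from the centre of the heat shock element. By −log10 q, 3.94, it was the weakest Jun-family peak within 3 kb of a member's start site. DNAJB1 (chr19:14514769-14560391) had none within 3 kb in either line, in a window that also takes in the start of TECR. No match to a motif or no peak says only that none was found in these windows and lists.

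**Figure D3:**
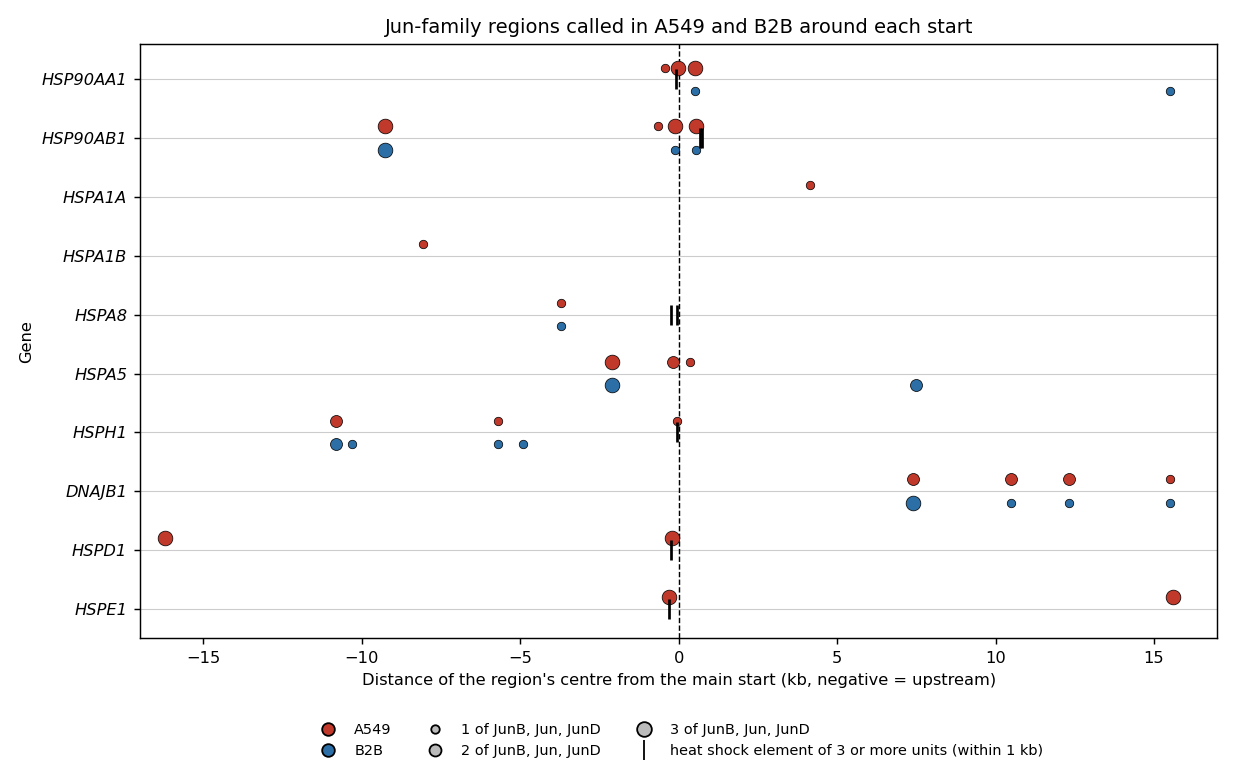
Jun-family regions within 17 kb of the main start of each gene (horizontal axis, kb), with red circles for A549 and blue for B2B, sized by how many of JunB, Jun and JunD were called, and black ticks for heat shock elements of 3 or more units within 1 kb. The A549 circles of HSP90AA1, HSP90AB1, HSPD1, HSPE1 and HSPH1 sit on or beside the ticks, and HSPA5, HSPH1, DNAJB1 and HSP90AB1 have paired red and blue circles away from the start.

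Of 7 separate stretches of 3 or more heat shock units within 1 kb of a member's main start, 5 were overlapped by a Jun-family peak of A549, and the others were both at HSPA8. Of 500 such stretches at all protein-coding genes, 28 (5.60%) were. The comparison was chosen after these values were seen, and it takes no account of how active the members' promoters are, so it is given as a description.

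How many reads a call took differed with the local background. At the Jun peak of HSP90AA1 at 0.52 kb the local background was 1.31 reads in A549 and 18.0 in B2B. At the first and second peaks of HSP90AB1 it was 2.01 and 1.31 reads in A549 and 10.7 and 18.9 in B2B. The pileup was higher in B2B than in A549 at all 3 of these peaks and at HSPA8, and lower at HSPA5. Fold enrichment was lower in B2B at each of the 5, for example 3.95 against 22.5 at HSP90AA1. Where the local background was at least 5 times the lowest of the list, the weakest JunB peak of B2B had 32 reads and the weakest JunD peak 26. The JunB peaks of A549 within 3 kb of the members had 12 to 31 reads, apart from the 77 of the upstream site of HSPA5. All but that one lie below the weakest JunB peak called in B2B at such a background. Depth is unknown, so the reads of the 2 lines are only set side by side. The JunD peaks of A549 had 15 to 45 reads. Those at the promoter of HSPD1 with HSPE1 (34 reads) and at the upstream site of HSPA5 (45) lie above the 26 of B2B, and the others below it. The local background of B2B at a promoter without a call is not given by its lists, so whether it has a part in the JunB and JunD absences was not tested.

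**Figure D4:**
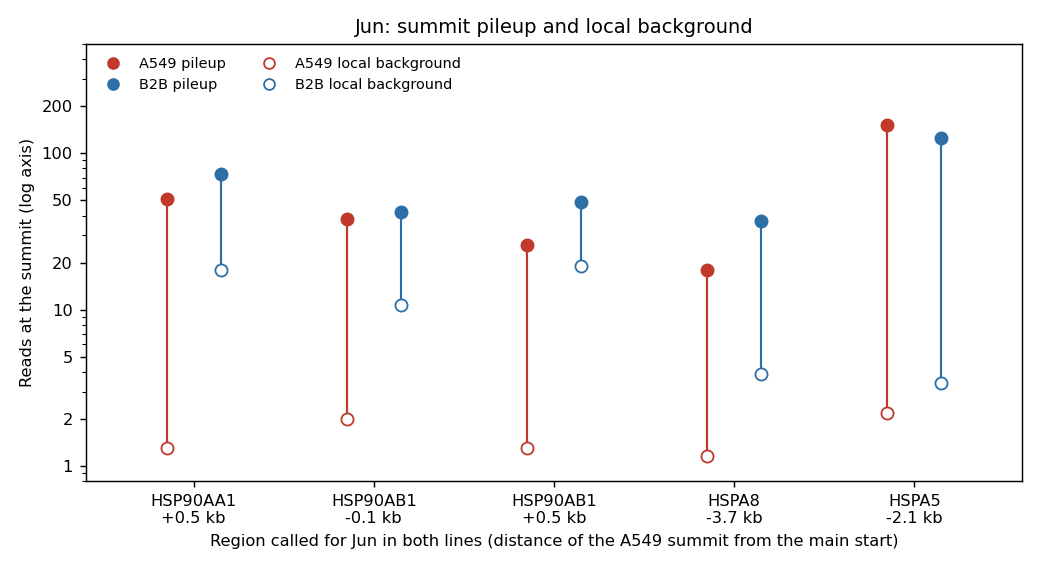
Reads at the summit (filled) and local background of the peak caller (open) on a log axis, for the 5 regions within 3 kb of a start site that were called for Jun in both A549 (red) and B2B (blue). The open blue circles stand at 10.7 to 18.9 reads at HSP90AA1 and HSP90AB1, where the open red circles stand at 1.31 to 2.01.

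Within 50 kb of the start sites there were 43 Jun-family regions, counted once. Of these 17 were called in both lines, which is 39.5% (Wilson 95% interval 26.4 to 54.4, counting error only), where 26.5% of all 72011 regions were. A further 17 were called in A549 alone (39.5%, against 34.1% of all) and 9 in B2B alone (20.9%, interval 11.4 to 35.2, against 39.4%). Regions differ in size and several share a locus, so the intervals are too narrow. The make-up differs too, since 20 of the 43 lay within 1 kb of a protein-coding start, where 11078 of all 72011 did. Among regions further away, 9 of 23 at the members were in B2B alone, where 26704 of all 60933 were. Those 2 shares lie near each other. A member had a median of 4 regions, the same as protein-coding genes.

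The shared regions of the members lay mostly away from their starts. DNAJB1 had 4 of them in a row past the end of the gene, 7.39 to 15.5 kb from the main start. The strongest in A549 was at 10.5 kb, with 74 Jun reads against 39 in B2B, and the one at 12.3 kb had 51 against 88. At 7.39 kb all 3 proteins were called in B2B, with 34 reads for JunB, 56 for Jun and 30 for JunD, while A549 lacked JunD. HSPH1 had shared regions at -5.70 kb, with 28 Jun reads in A549 and 30 in B2B, and at -10.8 kb, with 48 and 76. HSP90AB1 had one at -9.26 kb, nearer to SLC29A1, where all 3 proteins were called in both lines with 75, 113 and 44 reads in A549 and 80, 145 and 44 in B2B. At this last region none of the 3 pileups was lower in B2B than in A549. The region near HSPA8 with all 3 proteins in B2B, at -21.7 kb, lies at the start of CLMP, a cell adhesion gene, with 31, 72 and 30 reads in B2B and 43 and 35 for JunB and Jun in A549. The strongest shared region of HSPD1 and HSPE1 lay at the start of COQ10B, with 52, 46 and 18 reads for the 3 proteins in A549 and 48 for Jun in B2B. That of HSPA1A and HSPA1B lay at the start of NEU1, with 29 JunB and 30 Jun reads in A549 and 44 Jun reads in B2B. The window below is on the minus strand with the AP-1 motif in capitals, and shows that a motif lay beside a shared summit.
HSPH1 at -5.70 kb, A549 Jun summit, chr13:31167578-31167678: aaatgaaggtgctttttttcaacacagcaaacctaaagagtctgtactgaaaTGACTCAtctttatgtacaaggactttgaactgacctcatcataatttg

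Of the 9 regions in B2B alone none lay within 1 kb of a protein-coding start, where 1675 of 28379 such regions did over the genome. With 9 regions, a count of none lies near that share. The strongest, near HSPA5 at 7.49 kb in RABEPK, had 53 Jun and 14 JunD reads. HSP90AA1 had 4 of the 9, with Jun alone, and 24 reads in the strongest by fold. The strongest of HSPH1, HSPA8 and DNAJB1 held Jun alone too, with 28, 19 and 14 reads. In A549 alone, the strongest regions of HSP90AB1, HSPA1A, HSPA1B and DNAJB1 lay at the starts of other genes, namely NFKBIE, VWA7, NEU1 and NDUFB7. JunB and Jun had 19 and 19 reads at NFKBIE, 32 and 38 at VWA7 and 29 and 19 at NEU1, and Jun had 11 at NDUFB7. Of the A549-alone regions, 9 lay on chromosomes before chromosome 13, on which the A549 H3K27ac list ends. The HSPH1 region on chromosome 13 was not counted, although it overlapped a Med1 and an H3K27ac peak of B2B. In B2B 7 of these 9 overlapped a Med1 peak and 7 an H3K27ac peak, so most were within active chromatin of B2B too. Over all such A549-alone regions 26.8% and 24.2% did, but the members' regions were taken near 10 promoters that are active in both lines.

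The AP-1 motif TGACTCA was within 50 bases of a summit in 16 of the 43 regions (37.2%), as in 37.1% of all regions. Among regions of the members it was found in 9 of 17 shared ones (52.9%, interval 31.0 to 73.8), 4 of 17 of A549 alone (23.5%, 9.56 to 47.3) and 3 of 9 of B2B alone. The same shares over all regions came to 56.8%, 31.0% and 29.2%. The shared class was the highest in both, and the intervals of the members' classes overlap. Among A549-alone regions within 1 kb of a coding start the motif was in 4 of 14 at the members and in 13.4% of all. The 4 all lie at neighbours and not at a member's own start. No member held the motif in the 250 bases before its RefSeq start, where 4.20% of 35116 promoters did. With 10 members, a count of none lies near that share. The RefSeq start differs from the main start used elsewhere at HSP90AB1, HSPH1 and DNAJB1.

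CTCF, which marks insulators, was called in B2B near 5 of 10 members, namely HSP90AB1, HSPA1A, HSPA1B, HSPH1 and DNAJB1. It was called at 50.1% of all genes and at 63.3% of genes with H3K4me3 in both lines, so the members' count lies near the general share. The cohesin subunit Rad21 was called at 10 of 10, against 67.9%, and at 92.1% of genes with H3K4me3 in both lines. Its highest pileup was 249 reads at HSPD1 with HSPE1 and its lowest 57 at HSPA1A.

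The other chaperone genes were taken from a fixed list of 73. Jun was called at 46 of them in A549 (63.0%) and 24 in B2B (32.9%), JunB at 23 (31.5%) and 3 (4.11%), and JunD at 19 (26.0%) and 1 (1.37%). The Jun share in A549 stood above the 53.4% of genes with H3K4me3 in both lines, and the JunB share below their 44.2%. In B2B those genes had Jun at 33.5%, JunB at 7.11% and JunD at 4.43%, so the Jun share of the 73 was near theirs. All 3 proteins in A549 and none in B2B were found at 6 of 73, and the reverse at 0, where 5.79% of protein-coding genes and 8.77% of those with H3K4me3 in both lines had that pattern. The count of 6 lies near those shares. The 6 were HSPA6, a strictly inducible HSP70, DNAJB6, DNAJB9, a J-domain protein of the endoplasmic reticulum, SIL1, the nucleotide exchange factor of BiP, CANX, a lectin chaperone of that compartment, and PDIA4, a disulfide isomerase. Their summed fold enrichment in A549 ran from 13.9 at DNAJB6 to 22.6 at DNAJB9. Of the cytosolic chaperonin TRiC, 7 of 8 subunit genes had Jun in A549 and 3 in B2B, the latter near the 33.5% above. CCT4 had Jun and JunD in A549 and none in B2B, and CCT2 had JunB and Jun. Among co-chaperones, FKBP5, a steroid-responsive HSP90 partner, and PTGES3 (p23) had 2 of the 3 proteins in A549 and none in B2B. Of the heat shock factor group, HSF1, the main factor of the heat response, and HSF4 had Jun and JunD in A549 and none in B2B, and HSBP1, whose product binds heat shock factor, had JunB and Jun. HSP90B1, the HSP90 of the endoplasmic reticulum, and HSPA12A had JunB and Jun in A549 and none in B2B, with summed fold enrichments of 12.8 and 13.6. HSPA4, DNAJA1, DNAJC7, CDC37, TCP1, CCT3 and CALR had Jun alone in A549 and none in B2B, with fold enrichments from 4.90 at CCT3 to 9.63 at DNAJC7, and HSPA4L had Jun in B2B alone, at 7.29.

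Small heat shock protein genes, whose products hold unfolded proteins without ATP, went the other way for Jun. It was called at 3 of 9 in A549, against 38.2% of protein-coding genes, and at 6 of 9 in B2B, against 25.4%. The A549 count lies near its share. HSPB2, HSPB3 and HSPB6, which are known from muscle, had Jun in B2B alone, with fold enrichments of 6.29, 4.62 and 5.81. Of all protein-coding genes 6.50% had Jun in B2B alone. HSPB2 and CRYAB lie beside each other and shared their B2B peak, so that peak counts for both. CRYAB also had Jun in A549, with a fold enrichment of 12.5, so their shared locus was not without Jun in A549. H3K4me3 was called at 6 of 9 of these genes in A549 (73.7% of protein-coding genes) and 3 in B2B (62.7%).

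**Figure D5:**
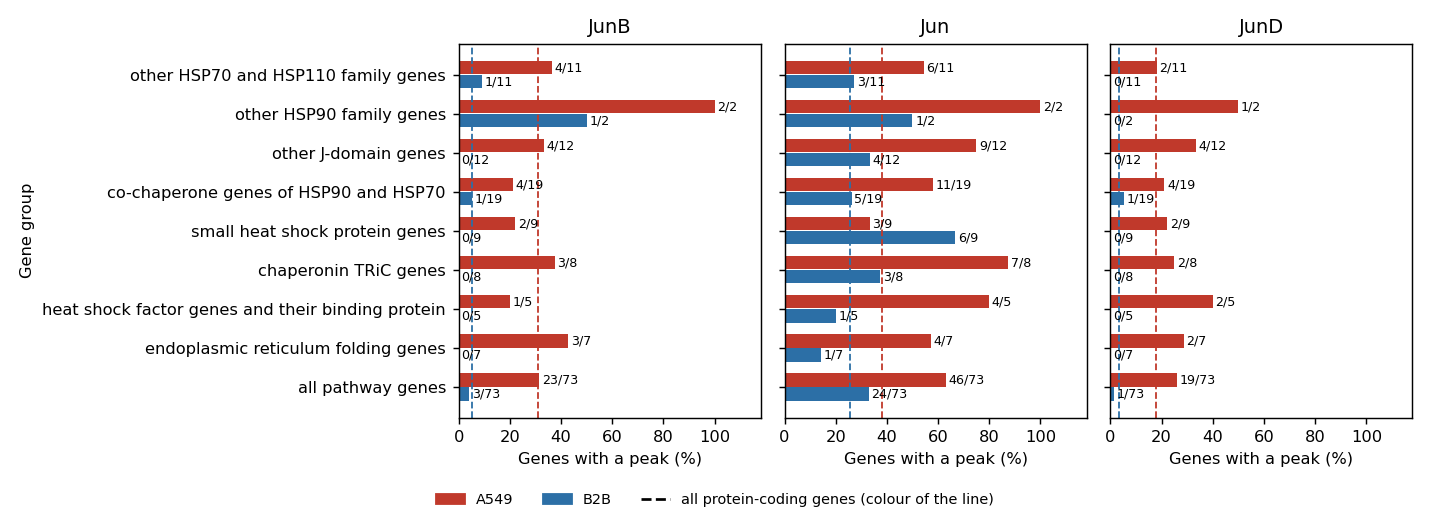
Percentage of genes in each chaperone group with a JunB, Jun or JunD peak within 3 kb of a start site (bars, with counts) in A549 (red) and B2B (blue), with dashed lines at the share of all protein-coding genes in the line of that colour. The small heat shock protein group is the 1 group in which the blue Jun bar, 6 of 9, is longer than the red, 3 of 9.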

How the data were processed

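The series holds 36 ChIP-seq samples of A549 and B2B cells in 18 groups of 2 replicates, and 16 peak lists were analysed. According to the labels and the study's methods, reads were mapped with Bowtie2 (2.4.4) against hg38 by the authors, who removed duplicates, merged the replicates, used SAMtools (1.13) and called narrow peaks with MACS2 (2.2.7.1). The options of the call and its control are not given in the sources used here. Each deposited list gives a score (10 times the −log10 q-value), the fold enrichment as a ratio to the local background, and the −log10 p-value and −log10 q-value. The weakest peaks of the lists had a −log10 q of 2.00 to 2.15. The 4 input samples were not analysed here. Lists ended on chromosome 20 at 325204 (A549 pol II), 15 at 60479432 and 60479329 (A549 and B2B Med1) and 13 at 52851492 (A549 H3K27ac), counting chromosomes in numeric order, and genes past these positions were left out for that list.

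Start sites were those of all transcripts in GENCODE release 44 (hg38). A peak counted when it overlapped the window by 1 bp. Pileup and local background were solved from fold enrichment and p-value with the Poisson model of the caller, and 100% of the pileups were whole numbers within 0.05. JunB, Jun and JunD peaks of both lines that overlapped were merged into regions. Peaks were ranked within their own list. Since the lists are pooled, no test was run, and shares carry Wilson 95% intervals (SciPy 1.17.1). Interval counts were checked against bedtools (2.31.1), with 3 of 3 equal, and the pileup solution was tested on simulated data, with 485 of 485 recovered. Motifs were searched with Python (3.11.15) and pysam (0.24.0) in hg38 and in RefSeq promoters (GRCh38.p14). Depth is unknown, so precision per peak is not known beyond the pileup itself.

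The 10 genes, the 73 other chaperone genes and the comparisons were chosen with earlier results of these data known. Named were all 10 members, per chaperone group up to 4 genes called for the most Jun-family proteins in one line and none in the other (ties by summed fold enrichment), and per member the strongest region of each class. Genes at such regions are named as neighbours, and CRYAB was named after its values were seen. Alternatives were windows of 1 kb, 25 kb and 100 kb, the gene's own start, a −log10 q of at least 5, lists of equal length, 50% reciprocal overlap and other ranks. The main start alone was added after seeing the data.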

Additional observations from a re-analysis of the deposited data

How the results depend on the processing

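Of 113 alternative values of 32 results, 101 stayed near the reported value and 12 moved, and the cause was not tested. Within 1 kb of a start, JunB was called at 0 members in B2B, Jun at 2 and JunD at 0, and JunD at 0 of the 73 other chaperone genes in B2B. With lists of equal length, JunB was called at 1 member in A549. With 50% reciprocal overlap the shared share of regions near members was 25%. Ranked by pileup, 4 of 10 members stood higher in A549 for pol II, 3 of 10 for H3K4me3, 3 of 8 for H3K27ac and 1 of 4 for Jun. Ranked by −log10 q, 4 of 10 did for H3K4me3 and 4 of 8 for H3K27ac. By fold enrichment these were 10 of 10, 8 of 10, 7 of 8 and 4 of 4. The counts of JunD in A549 and of pol II, Med1 and H3K4me3 in both lines were among those that stayed near.

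No paired analysis was possible because each list pools both replicates, and for the same reason no replicate was left out. With 1 list per target and line there is no replicate error, and the lists give neither the local background nor the reads at places without a peak. The members share loci, and reads of HSPA1A and HSPA1B cannot be told apart where the copies are identical.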

Other observations

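Among the other chaperone genes, some held strong Jun-family peaks without differing fully between the lines, and these were chosen after their values were seen. BAG3, a heat-inducible partner of HSP70, had JunB, Jun and JunD in both lines, with fold enrichments of 29.5, 38.6 and 15.4 in A549 and 9.09, 22.2 and 6.16 in B2B. HSPB1, the most widely expressed small heat shock protein gene, had all 3 in A549, with 21.6, 54.6 and 8.57, and Jun alone in B2B, with 5.74. DNAJB2, a J-domain gene, had 18.0, 42.6 and 8.62 in A549 and Jun alone in B2B, with 3.50.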
